A study of Mus musculus with 8 samples.

Results

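The genes described here are interleukin-10 and the receptor and STAT3 arm around it: Il10, Il10ra, Il10rb, Stat3, Il4ra, Sbno2 and Nfil3. Members were taken by gene symbol, as the probe sets annotated to exactly 1 of these symbols. This gave 18 of 34945 such probe sets, and 7 of 18193 genes, the value of a gene being that of its brightest probe set on average over the 8 arrays. The rule names symbols and uses no measured value, but the symbols were proposed with earlier results of these data known.

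RNA came from mouse macrophages grown out of bone marrow for 7 to 10 days in macrophage colony-stimulating factor at 10 ng/mL and purified by adherence. The 4 groups were Tpl2 wild type unstimulated, Tpl2 deficient unstimulated, Tpl2 wild type with LPS and Tpl2 deficient with LPS, with 2 arrays each. LPS, a cell wall component of Gram-negative bacteria that activates toll-like receptor 4, was from Escherichia coli and was used at 1 μg/mL. The labels assign no treatment time to these arrays and give neither strain nor age of the mice, nor the design of the Tpl2 allele. They call the replicates biological but do not say whether these came from separate animals. Every p-value therefore reflects sample-to-sample spread that may not include the spread between animals. The series title places the study in chemokine expression and macrophage migration. The comparisons here ask how the IL-10 arm responded to LPS in each genotype and where the genotypes differed.

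The kinase Tpl2, the product of Map3k8, passes toll-like receptor signals on to MEK and ERK. IL-10 is the main anti-inflammatory cytokine made by macrophages after such signals. It binds a receptor built from a ligand-binding chain, IL-10Rα, and an accessory chain, IL-10Rβ, which is shared with receptors of related cytokines. The receptor works through the kinases JAK1 and TYK2 and the transcription factor STAT3, which switches on regulators such as SBNO2 and NFIL3 and restrains inflammatory genes. Il4ra encodes the receptor chain for IL-4 and IL-13, and its message is known to be raised by IL-10 in macrophages.

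The data are log2 intensities, so a difference of 1 is a doubling. Changes are given as log2 differences with a standard error from limma fitted to all 8 arrays, and a gene passed at an adjusted p (Benjamini-Hochberg over 18193 genes) under 0.05. The arrays of a group correlated at 0.997, or 0.994 for LPS-treated Tpl2-deficient cells. In that group the median standard deviation over genes was 0.125, and in the other groups it was 0.0713 to 0.0740. The 3′ minus 5′ difference of the actin control probe sets, a measure of RNA integrity, was 0.742 and 0.507 in wild type without and with LPS, and 0.885 and 0.647 in Tpl2-deficient cells. Its part in the results was not tested. All 10 macrophage markers, Adgre1 and Csf1r among them, lay above the array median in every group, with a mean log2 level of 12.1 to 12.6 per array. Among 9 neutrophil, 8 dendritic cell, 8 T and NK cell, 7 B cell, 7 mast cell and 8 stromal cell markers, the numbers above the median were 3, 3 to 4, 3 to 5, 2, 0 to 2 and 3 to 4 by group. The mean log2 levels of these lists spanned 6.74 to 7.26, 6.64 to 6.86, 6.20 to 6.71, 6.47 to 6.56, 5.82 to 6.81 and 6.003 to 7.01 per array. Some markers moved with LPS: 6 of 9 neutrophil markers rose in wild type and 2 in Tpl2-deficient cells, and 0 fell. Of the macrophage markers, 3 rose and 3 fell in wild type, and 3 rose and 5 fell in Tpl2-deficient cells. In wild type 2 dendritic cell, 2 T and NK cell, 2 B cell, 2 mast cell and 2 stromal cell markers rose, and in Tpl2-deficient cells 1, 2, 2, 1 and 2. In each genotype 2 dendritic cell markers and 1 B cell marker fell. Their part in the LPS changes of the members was not tested. Map3k8, on 1 probe set, had mean log2 levels of 9.27 and 8.27 in unstimulated wild-type and Tpl2-deficient cells, and 10.96 and 9.96 with LPS. It was 2.00-fold lower in Tpl2-deficient cells in both conditions (adjusted p = 0.00237 and 1.25e-04), in the direction of the labels. Whether the probe set lies inside the altered stretch of the gene is not stated in the labels.

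LPS raised 5 of the 7 members and lowered 1 in wild-type cells, where 21.3% of all genes rose and 30.9% fell. In Tpl2-deficient cells 3 rose and 2 fell, where 16% of all genes rose and 25.8% fell. The split of all genes depends on the scaling: it was 3872 higher and 5627 lower in wild type and, for Tpl2-deficient cells, 2903 and 4693. With arrays centred on the hybridisation spike-ins it was 2091 and 6252 in wild type and 1795 and 6380 in Tpl2-deficient cells. The members then split into 4 higher and 1 lower in wild type, and 3 and 2 in Tpl2-deficient cells. Without LPS, 0 of 7 differed between genotypes at this threshold in limma's test, against 0.5% of all genes. With LPS, 5 of 7 were lower in Tpl2-deficient cells and 0 were higher, against 5.73% of all genes lower and 8.01% higher. The LPS-treated groups did not overlap for the same 5 members, against 46.6% of all genes. LPS-treated and unstimulated arrays did not overlap for 7 of 7 members in wild type and 6 of 7 in Tpl2-deficient cells, against 80.3% and 66.7% of all genes.

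**Figure D1:**
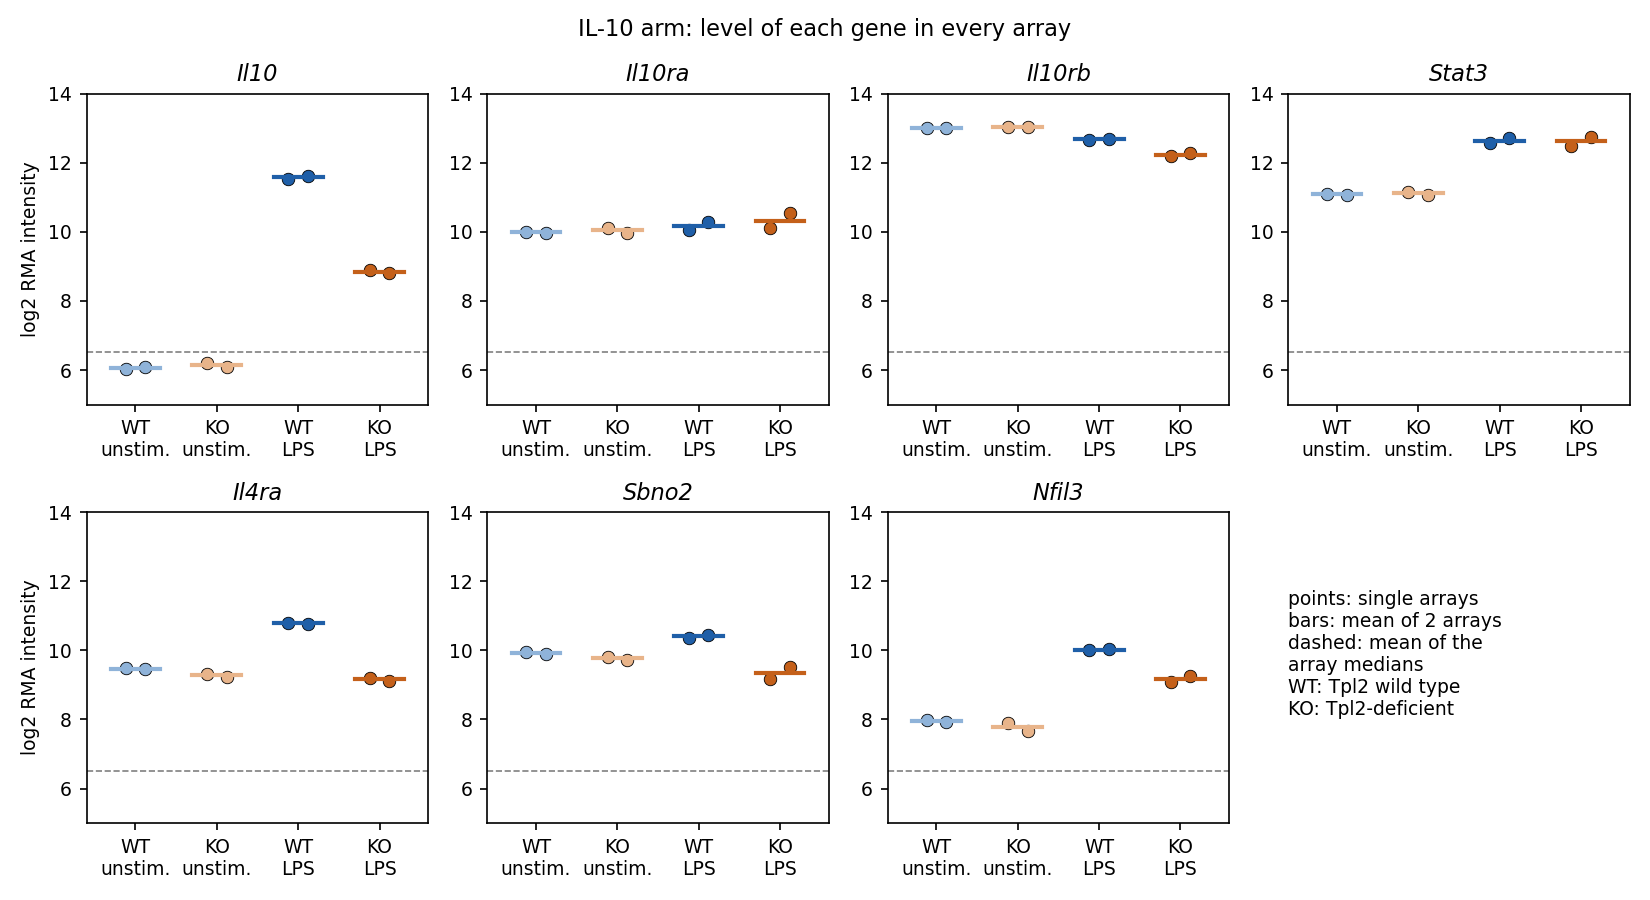
Log2 level of each member on each array (vertical axis), by group of genotype and treatment (horizontal axis); points are arrays, 2 per group, and bars are group means. With LPS, both Tpl2-deficient arrays lie below both wild-type arrays for Il10, Il10rb, Il4ra, Sbno2 and Nfil3, and the genotypes overlap for Il10ra and Stat3.

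Il10, the ligand, showed the widest range of the 7. Its log2 levels were 6.04 and 6.08 in unstimulated wild-type cells and 6.21 and 6.09 in unstimulated Tpl2-deficient cells, under the array medians of 6.48 to 6.53. With LPS they were 11.53 and 11.62 in wild type and 8.89 and 8.81 in Tpl2-deficient cells. All 4 LPS-treated arrays were therefore above all 4 unstimulated ones, and the Tpl2-deficient pair lay well below the wild-type pair.

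A level under the array median was not shown to be above background, so the LPS rises of Il10 are lower bounds. Il10 rose at least 45.7-fold in wild-type cells (5.51 ± 0.10, adjusted p = 2.31e-11) and at least 6.49-fold in Tpl2-deficient cells (2.70 ± 0.10, adjusted p = 2.4e-09). With LPS, Il10 was 6.63-fold lower in Tpl2-deficient cells (-2.73 ± 0.10, adjusted p = 5.28e-08), which ranked 28th from the lowest of all 18193 genes. The difference of the LPS responses was -2.82 ± 0.14 (adjusted p = 2.48e-06), and since it rests on unstimulated levels under the array median it is no bound. In order, Il10 was highest in LPS-treated wild type, then in LPS-treated Tpl2-deficient cells, and the unstimulated groups did not differ by the test. These are bulk samples, in which fewer cells making a message and less message per cell cannot be told apart.

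Il10ra encodes the ligand-binding chain of the IL-10 receptor. On the log2 scale it stood at 9.99 and 9.97 in unstimulated wild type, 10.12 and 9.97 in unstimulated Tpl2-deficient cells, 10.06 and 10.27 in LPS-treated wild type, and 10.10 and 10.54 in LPS-treated Tpl2-deficient cells. The 8 values spanned less than 1 log2 unit, and the genotypes overlapped in both conditions. Il10ra passed in no comparison. Its change with LPS was 0.19 ± 0.14 in wild type (95% interval -0.13 to 0.50) and 0.28 ± 0.14 in Tpl2-deficient cells (-0.04 to 0.59). With LPS, the genotype difference was 0.15 ± 0.14 (-0.16 to 0.47). The intervals reach rises of 0.50 and 0.59 with LPS, so a similar level in all groups is not shown. Without the first array of LPS-treated Tpl2-deficient cells, the rise in that genotype was 0.50 and passed (adjusted p = 0.0111, against 0.0111 to 0.757 over its alternatives).

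Il10rb, the accessory chain, was the member that fell with LPS in both genotypes. Its log2 levels were 13.00 and 13.00 in unstimulated wild type and 13.04 and 13.04 in unstimulated Tpl2-deficient cells. They were 12.67 and 12.69 with LPS in wild type and 12.19 and 12.27 with LPS in Tpl2-deficient cells. The unstimulated arrays were highest, LPS-treated wild type came next and LPS-treated Tpl2-deficient cells were lowest, with no overlap between these 3 levels.

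The fall of Il10rb was 1.25-fold in wild type (-0.32 ± 0.09, adjusted p = 0.0154) and 1.75-fold in Tpl2-deficient cells (-0.81 ± 0.09, adjusted p = 2.77e-05). With LPS, Il10rb was 1.37-fold lower in Tpl2-deficient cells (-0.45 ± 0.09, adjusted p = 0.00848). The responses differed by -0.49 ± 0.13 (adjusted p = 0.0465). The calls in wild type, under LPS and for the difference of responses rest on small margins. The wild-type call was lost without any 1 of its 4 arrays, with values of -0.33 to -0.31. The genotype call under LPS was lost without either LPS-treated wild-type array (-0.46 without the first, adjusted p = 0.0586, and -0.44 without the second, adjusted p = 0.0743, against 5.23e-04 to 0.0743 over its alternatives). For the difference of responses the adjusted p was 0.00629 to 0.159 over its alternatives, and 0.0665 with a replicate block. The second probe set of Il10rb was lower with LPS in Tpl2-deficient cells (adjusted p = 0.00337) and did not pass in wild type (-0.09) or between genotypes under LPS (-0.35).

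Il4ra, the receptor chain for IL-4 and IL-13, was the member whose LPS response was present in wild type and not detected in Tpl2-deficient cells. Wild-type arrays gave log2 levels of 9.48 and 9.46 unstimulated and 10.78 and 10.77 with LPS. In Tpl2-deficient cells the values were 9.31 and 9.23 unstimulated and 9.21 and 9.11 with LPS. The 2 LPS-treated wild-type arrays stood above the other 6, which spanned 9.11 to 9.48.

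Il4ra rose 2.47-fold with LPS in wild type (1.30 ± 0.10, adjusted p = 5.53e-07), while the change in Tpl2-deficient cells was -0.11 ± 0.10 (95% interval -0.33 to 0.10, adjusted p = 0.401). The responses differed by -1.42 ± 0.14 (adjusted p = 1.03e-04). With LPS, Il4ra was 3.07-fold lower in Tpl2-deficient cells (-1.62 ± 0.10, adjusted p = 1.14e-06), the 99th lowest of all genes. Of its 3 probe sets, 2 were lower in Tpl2-deficient cells with LPS (-1.62 and -1.21), and the third, with the lowest signal, gave -0.47 and did not pass (adjusted p = 0.104). All 3 passed for the difference of the responses.

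Stat3, the transcription factor that carries the IL-10 signal, rose in both genotypes. Its log2 levels were 11.09 and 11.08 in unstimulated wild type and 11.16 and 11.07 in unstimulated Tpl2-deficient cells. With LPS they were 12.56 and 12.71 in wild type and 12.49 and 12.74 in Tpl2-deficient cells. The LPS-treated arrays stood above all unstimulated ones, and the genotypes overlapped within each treatment.

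Stat3 rose 2.94-fold in wild type (1.55 ± 0.11, adjusted p = 5.3e-07) and 2.84-fold in Tpl2-deficient cells (1.504 ± 0.11, adjusted p = 8.01e-07). The genotype difference under LPS was -0.02 ± 0.11 (95% interval -0.27 to 0.23), and the responses differed by -0.05 ± 0.16 (-0.41 to 0.31). These intervals hold no change of 2-fold in either direction, and smaller differences within them are not excluded. All 4 Stat3 probe sets rose with LPS in both genotypes, by 0.71 to 1.56 in wild type and 0.81 to 1.97 in Tpl2-deficient cells. Between genotypes under LPS, 0 of the 4 passed in limma's test (-0.02 to 0.27).

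**Figure D2:**
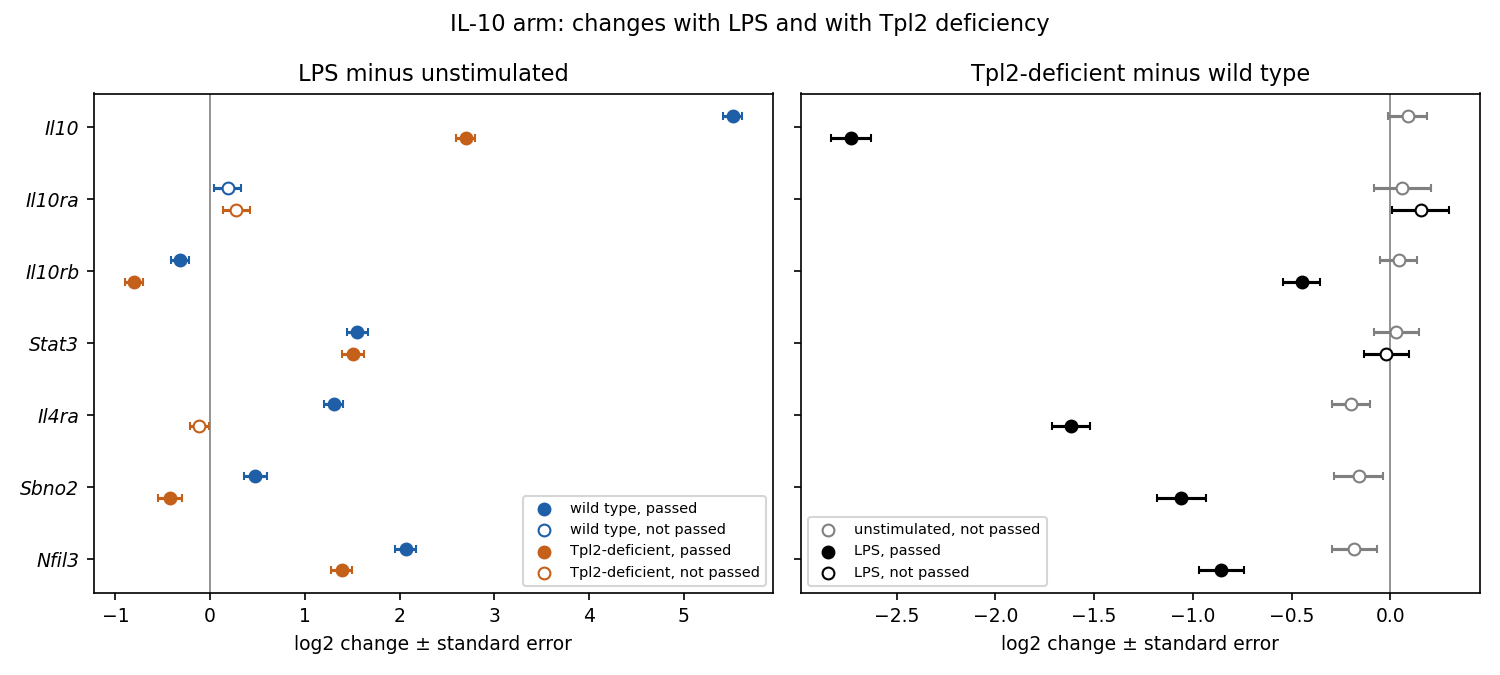
Log2 change (horizontal axis) with its standard error for each member, with LPS in each genotype (left) and between genotypes in each condition (right); filled points passed an adjusted p under 0.05 and open points did not. Stat3 lies near 1.5 in both genotypes on the left, whereas Il4ra and Sbno2 lie above 0 in wild type and below 0 in Tpl2-deficient cells.

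Sbno2 encodes a regulator known as a STAT3-induced repressor of inflammatory transcription in macrophages. Its log2 levels were 9.95 and 9.91 in unstimulated wild type and 9.80 and 9.73 in unstimulated Tpl2-deficient cells. With LPS they were 10.36 and 10.45 in wild type and 9.16 and 9.53 in Tpl2-deficient cells. Both LPS-treated wild-type arrays were the highest of the 8 and both LPS-treated Tpl2-deficient arrays the lowest.

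Sbno2 rose 1.39-fold with LPS in wild type (0.48 ± 0.12, adjusted p = 0.00741) and fell 1.34-fold in Tpl2-deficient cells (-0.42 ± 0.12, adjusted p = 0.0175). With LPS it was 2.08-fold lower in Tpl2-deficient cells (-1.06 ± 0.12, adjusted p = 1.68e-04), and the responses differed by -0.90 ± 0.18 (adjusted p = 0.00985). The fall in Tpl2-deficient cells was not shared by the other probe sets. Of the other 3 probe sets, 1 rose (0.47, adjusted p = 0.00623) and 2 did not pass (0.05 and -0.12), and the mean of all 4 gave -0.01. This call was also lost without the first unstimulated Tpl2-deficient array (-0.39), without the second (-0.46) and without the first LPS-treated Tpl2-deficient array (-0.24). All 4 probe sets rose in wild type, by 0.31 to 0.67. Between genotypes under LPS, 3 of 4 were lower (-1.06, -0.78 and -0.87), and the remaining 1 did not pass (-0.25). That 1 probe set gave 0.17 for the difference of responses and did not pass, while the other 3 were lower (-0.90, -0.62 and -0.77). Without the second LPS-treated wild-type array, the rise in wild type (0.43, adjusted p = 0.0563) and the difference of responses (-0.85, adjusted p = 0.0518) fell just outside the threshold; over their alternatives the adjusted p ran from 4.18e-04 to 0.0766 and from 0.00206 to 0.0518.

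Nfil3 encodes a basic leucine zipper repressor that is induced by IL-10 and STAT3. Log2 levels of Nfil3 were 7.99 and 7.92 in unstimulated wild type and 7.89 and 7.66 in unstimulated Tpl2-deficient cells. With LPS they were 10.00 and 10.03 in wild type and 9.08 and 9.24 in Tpl2-deficient cells. Its order over the groups was that of Il10: LPS-treated wild type highest, LPS-treated Tpl2-deficient cells next, and the unstimulated groups lowest.

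Nfil3 rose 4.18-fold in wild type (2.06 ± 0.11, adjusted p = 4.56e-08) and 2.62-fold in Tpl2-deficient cells (1.39 ± 0.11, adjusted p = 1.27e-06). With LPS it was 1.81-fold lower in Tpl2-deficient cells (-0.86 ± 0.11, adjusted p = 3.62e-04). The responses differed by -0.67 ± 0.16 (adjusted p = 0.0247). That last call was lost without either unstimulated wild-type array (-0.71 and -0.63), without the first unstimulated Tpl2-deficient array (-0.56) or without either LPS-treated wild-type array (-0.69 and -0.66).

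**Figure D3:**
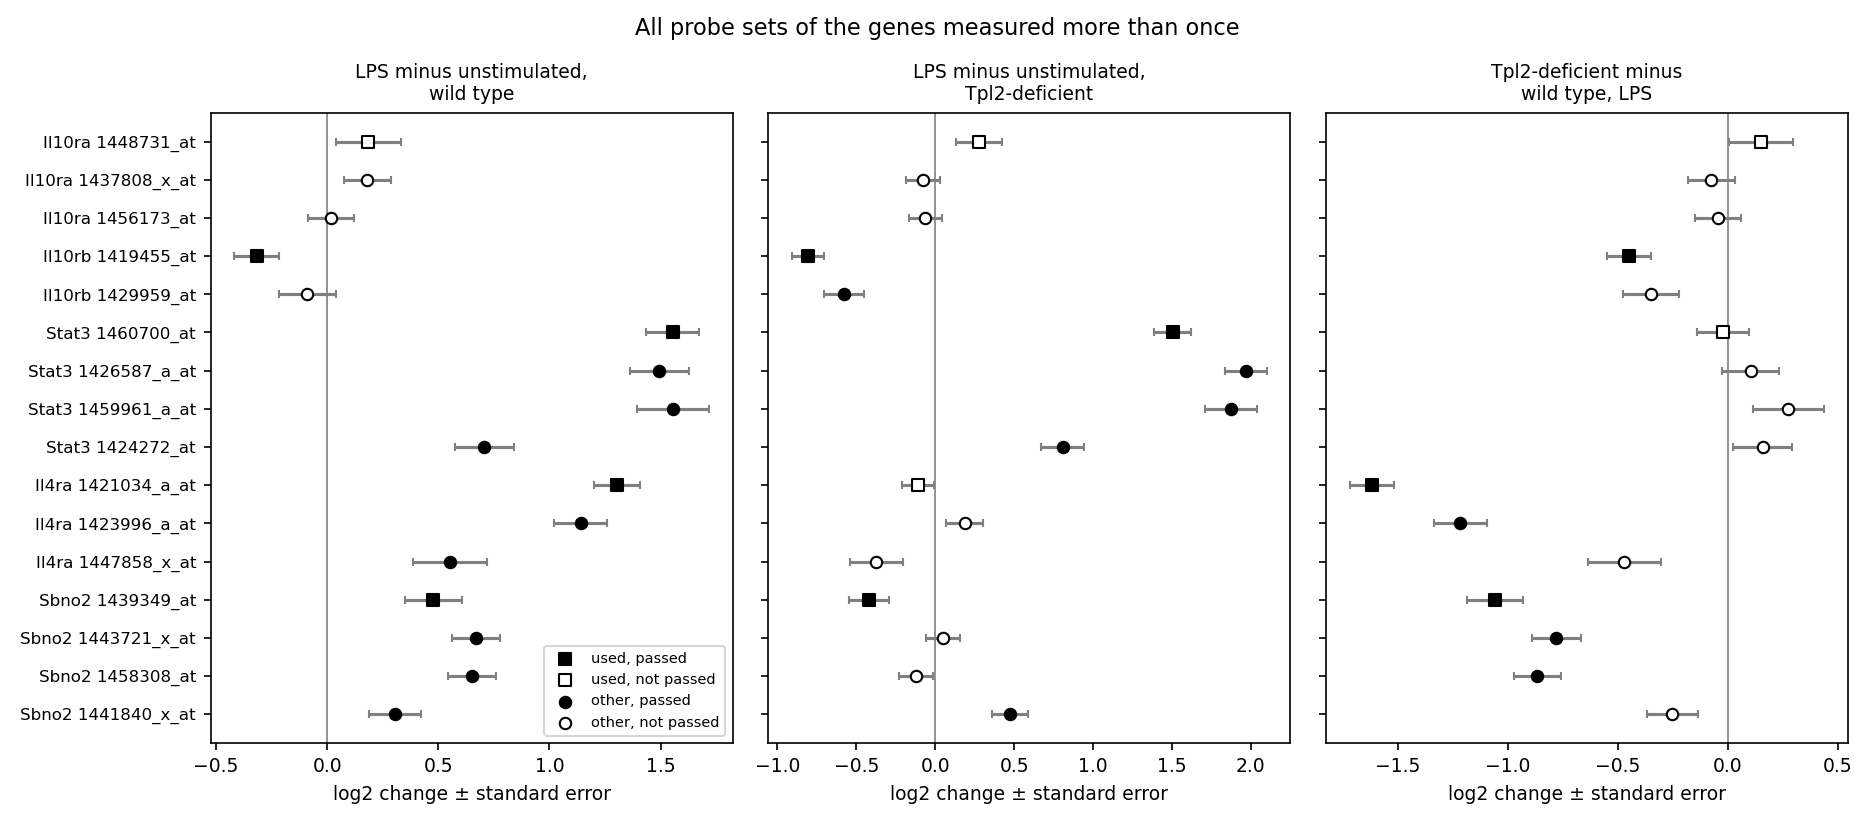
Log2 change (horizontal axis) with its standard error for every probe set of Il10ra, Il10rb, Stat3, Il4ra and Sbno2, the members with several probe sets. The panels show LPS in wild type (left), LPS in Tpl2-deficient cells (middle) and Tpl2-deficient against wild type under LPS (right). The probe set used for each gene is marked apart from the others. In the right panel, for Il4ra 2 of 3 and for Sbno2 3 of 4 probe sets passed, and for Stat3 the 4 probe sets lie between -0.02 and 0.27.

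Without LPS, the genotype differences of the members were 0.06 for Il10ra, 0.04 for Il10rb, 0.03 for Stat3, -0.20 for Il4ra, -0.16 for Sbno2 and -0.18 for Nfil3. Il10 lay under the array median in both unstimulated groups, so no size is given for its difference there. The lowest unadjusted p was 0.063, for Il4ra, while 2445 of all genes had an unadjusted p under 0.05. The groups did not overlap for 5 of 7 members, against 53.1% of all genes. For the difference of the LPS responses, 5 of 7 members were lower and 0 higher in Tpl2-deficient cells, against 2.87% and 5.72% of all genes. That split of all genes, 1040 higher and 523 lower, was 535 and 487 with the spike-ins and 745 and 580 with quantile normalization repeated, and the members were 0 higher and 4 lower with the spike-ins. With a 2-fold minimum, Il10, Il4ra and Sbno2 remained lower in Tpl2-deficient cells under LPS, as did 1.5% of all genes.

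Promoter sequence was at hand for 4 of the 7 members, from the RefSeq table of assembly GRCm38.p6. The windows ran from 250 bases before to 50 after an annotated start. None was at hand for Il10, Il10ra or Il10rb, so no motif was searched in these. A STAT-type motif, TTCNNNGAA, was searched on both strands. It lay in 8.3% of all 32851 promoters and in 2 of the 6 promoters of the members, both of Sbno2. The single promoters of Il4ra, Stat3 and Nfil3 and the third promoter of Sbno2 held no such match. The stretches around both matches are shown because Sbno2 is the member whose promoters hold the motif and whose level differed between genotypes under LPS, and the motif is in capitals.
Sbno2, chr10:80102653-80102952, minus strand: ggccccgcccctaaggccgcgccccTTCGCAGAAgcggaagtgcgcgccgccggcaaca
Sbno2, chr10:80101138-80101437, minus strand: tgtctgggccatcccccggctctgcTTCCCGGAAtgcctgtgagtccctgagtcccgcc

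In these the motif begins 26 and 24 bases before the start, and the coordinates are those of the whole promoter window. Among 20 target genes of IL-10 and STAT3 with a promoter in the table, 3 held the motif: Socs3, Zfp36 and Tnfrsf1b. By gene the background was 2582 of 27025, and by promoter the targets had 3 of 23, against 8.3% of all promoters. With so few matches, neither the targets nor the members, with 1 gene of 4, are set apart. Socs3 and Zfp36 are shown because both were lower in LPS-treated Tpl2-deficient cells.
Socs3, chr11:117969317-117969616, minus strand: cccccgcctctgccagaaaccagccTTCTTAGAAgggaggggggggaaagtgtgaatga
Zfp36, chr7:28379179-28379478, minus strand: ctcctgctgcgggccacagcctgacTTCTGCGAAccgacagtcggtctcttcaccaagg

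The AP-1 type motif TGANTCA and the CREB type motif TGACGTCA were also searched on both strands. They lay in 0 of the 6 member promoters, which include none of Il10, and in 7.81% and 1.79% of all promoters. With shares this low and 6 promoters, 0 matches do not set the members apart. A match is a description of the letters in the window, and these arrays measured no binding.

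Signalling partners around the receptor were described through a list of JAK kinases, other STATs and their inhibitors, 15 of which were measured. The list covers the wider JAK-STAT pathway. Jak2, Stat2, Stat4 and Stat5a are thus not the JAK1, TYK2 and STAT3 named above for the receptor, and Jak1 was not among the genes named by size of change. With LPS, 9 rose and 2 fell in wild type (median change 0.42, against 0.04 for all genes). In Tpl2-deficient cells 12 rose and 2 fell (0.54, against 0.00). Of all genes, 21.3% rose and 30.9% fell in wild type, and 16% rose and 25.8% fell in Tpl2-deficient cells. The JAK kinase gene Jak2 rose 12.7-fold in wild type (3.66 ± 0.11) and 10.1-fold in Tpl2-deficient cells (3.33 ± 0.11). Stat2 rose by 2.98 and 2.94, and Stat5a by 2.09 and 2.12. With array levels centred on the hybridisation spike-ins, 6 partners rose and 3 fell in wild type (median 0.29). In Tpl2-deficient cells 7 then rose and 2 fell (0.33).

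Under LPS, Tpl2-deficient cells had 5 of the 15 partners higher and 1 lower than wild type, against 8.01% and 5.73% of all genes. Pias3, an inhibitor of STAT3 binding to DNA, fell with LPS in wild type (-1.97 ± 0.10) and was 1.90-fold higher in LPS-treated Tpl2-deficient cells (0.93 ± 0.10, adjusted p = 7.57e-05). Stat4 was higher by 0.69 ± 0.12, and Ptpn6, which encodes the phosphatase SHP-1, was lower (-0.59 ± 0.11). Tyk2, the kinase that serves IL-10Rβ, was 0.50 ± 0.14 higher, a call that was lost without the first LPS-treated wild-type array (0.43), without the second (0.57) or without the second LPS-treated Tpl2-deficient array (0.28). The count of higher partners was 2 without either LPS-treated wild-type array and 3, with 3 lower, without the second LPS-treated Tpl2-deficient array.

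Genes known to be raised by IL-10 or STAT3 mostly rose with LPS in both genotypes and were more often lower than higher in LPS-treated Tpl2-deficient cells. With LPS 21.3% of all genes rose and 30.9% fell in wild type, and 16% and 25.8% in Tpl2-deficient cells. Of the 24 targets measured, 19 rose and 0 fell in wild type (median 1.20), and 16 rose and 2 fell in Tpl2-deficient cells (0.76). The 0 that fell became 1 or 2 with the mean of all probe sets, the spike-ins, array weights, genes above the median level or only the 4 arrays compared. Socs3, the feedback inhibitor of STAT3 signalling, rose 75.4-fold in wild type (6.24 ± 0.18) and 62.0-fold in Tpl2-deficient cells (5.95 ± 0.18). Il1rn, the IL-1 receptor antagonist, rose 24.0-fold and 19.3-fold. Gadd45b rose 8.98-fold in wild type and 15.9-fold in Tpl2-deficient cells.

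Under LPS, 11 of the 24 targets were lower in Tpl2-deficient cells, 5 were higher and 8 did not pass (median -0.32, against 0.02 for all genes). By the same test 5.73% of all genes were lower and 8.01% higher. Hmox1, which encodes heme oxygenase 1, had log2 levels of 11.26 in LPS-treated wild type and 8.14 in LPS-treated Tpl2-deficient cells. It was 8.72-fold lower in the latter (-3.12 ± 0.17, adjusted p = 5.72e-07). Unstimulated levels of Hmox1 lay between these, at 9.97 and 10.51 in wild type and 9.98 and 10.28 in Tpl2-deficient cells. Cebpd, a transcription factor gene, was 5.98-fold lower (-2.58 ± 0.12). Dusp1, which encodes a phosphatase that switches off MAP kinases, was 3.06-fold lower (-1.62 ± 0.11), and Zfp36, whose product tristetraprolin destabilises cytokine messages, was 2.94-fold lower (-1.55 ± 0.10). The 4 largest changes were all toward lower levels, so none of the 5 higher targets is among them. Socs3 was 1.66-fold lower (-0.73 ± 0.18, adjusted p = 0.0196). Its mean unstimulated levels were 7.66 in wild type and 7.21 in Tpl2-deficient cells, and 0 targets passed between genotypes without LPS. The counts were 7 lower and 1 higher without the first LPS-treated wild-type array, 8 and 1 without the second, and 11 and 2 without the first LPS-treated Tpl2-deficient array. Several of these genes are also known to respond to ERK or to LPS without IL-10, and these inputs cannot be told apart here.

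Genes whose products act on the Il10 gene moved in both directions. In wild-type cells LPS raised 7 and lowered 14 of the 25 measured (median -0.42), and 7 rose and 12 fell in Tpl2-deficient cells (-0.28). These stand beside 21.3% of all genes rising and 30.9% falling in wild type, and 16% and 25.8% in Tpl2-deficient cells. The Tpl2-deficient median was -0.15 without the first LPS-treated array of that genotype. With the mean of all probe sets, wild type had 9 higher and 10 lower (-0.13) and Tpl2-deficient cells 8 and 11 (-0.12). Rel, an NF-κB subunit gene, rose by 3.08 and 3.14. Under LPS, Tpl2-deficient cells had 6 of these genes higher and 8 lower than wild type (median -0.07). Of all genes, 8.01% were higher and 5.73% lower in that comparison (median 0.02). The 8 include Map3k8, the gene altered by the genotype itself. Without the first LPS-treated wild-type array this was 4 higher and 6 lower (median -0.21). Fos, an AP-1 subunit gene that is an ERK target, had log2 levels of 11.70 in LPS-treated wild type and 8.88 in LPS-treated Tpl2-deficient cells. It was 7.02-fold lower in the latter (-2.81 ± 0.11, adjusted p = 8.21e-08). Without LPS the levels of Fos were higher, 13.06 and 13.09 in wild type and 13.12 and 12.90 in Tpl2-deficient cells. Its change with LPS in Tpl2-deficient cells was -4.12 ± 0.11. Maf, which encodes a transcription factor that activates Il10, was 3.85-fold lower (-1.95 ± 0.10, adjusted p = 5.9e-07), with levels of 13.14 and 11.19. Its unstimulated levels were 12.43 and 12.48 in wild type and 12.57 and 12.72 in Tpl2-deficient cells. Mapk14, the p38α gene, was 2.49-fold lower, and Zbtb20 was 2.36-fold higher (1.24 ± 0.10). Map3k8 was the only gene of the 25 to pass without LPS; with array weights 2 passed.

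Of related cytokines and the receptor chains that pair with or resemble those above, 15 were measured. With LPS 4 rose and 1 fell in wild type, against 21.3% and 30.9% of all genes (median 0.20, against 0.04). In Tpl2-deficient cells 2 rose and 2 fell, against 16% and 25.8% (median 0.09, against 0.00). The rising counts were near these shares, so they do not set the list apart. Ifnar1, a chain of the type I interferon receptor, rose with LPS in wild type (1.46 ± 0.16) and was 4.67-fold lower in LPS-treated Tpl2-deficient cells (-2.22 ± 0.16, adjusted p = 5.42e-06). Its fall within Tpl2-deficient cells (-0.61 ± 0.16) was lost without the first unstimulated (-0.52) or the first LPS-treated (-0.31) Tpl2-deficient array. Il13ra1, which pairs with the IL-4 receptor chain, rose 7.34-fold in wild type and 3.88-fold in Tpl2-deficient cells and was 1.66-fold lower in the latter under LPS. Il20rb was 2.19-fold higher there. In all, 4 of the 15 were lower and 1 higher under LPS, against 5.73% and 8.01% of all genes. Without the first unstimulated Tpl2-deficient array 1 rather than 2 fell with LPS in that genotype, and without the first LPS-treated Tpl2-deficient array 3 rose and 1 fell.

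Inflammatory genes that IL-10 is known to restrain were measured for all 21 listed. With LPS 20 rose in each genotype, with a median change of 4.69 in wild type and 3.79 in Tpl2-deficient cells. Of all genes, 21.3% rose in wild type (median 0.04) and 16% in Tpl2-deficient cells (median 0.00). Unstimulated levels of Il6, Ptgs2 and Cxcl9, among others, lay under the array median, so their rises are lower bounds and the medians may be too low. Under LPS 5 were lower, 4 were higher and 12 did not pass in Tpl2-deficient cells, with a median of -0.05. Of all genes, 5.73% were lower and 8.01% higher there. Il1a was 12.4-fold lower (-3.63 ± 0.13), Il1b was 6.78-fold lower (-2.76 ± 0.11) and Ccl2 was 5.11-fold lower (-2.35 ± 0.15). Il12a, which encodes the p35 subunit of IL-12, was 3.08-fold higher (1.62 ± 0.16, adjusted p = 3.72e-05). Il6, whose LPS rise was among the largest of the list, did not pass between genotypes (0.31 ± 0.10, adjusted p = 0.0676). Cxcl2 was the only gene of this list to pass without LPS (-1.03 ± 0.10), and 2 genes passed under some alternatives.

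**Figure D4:**
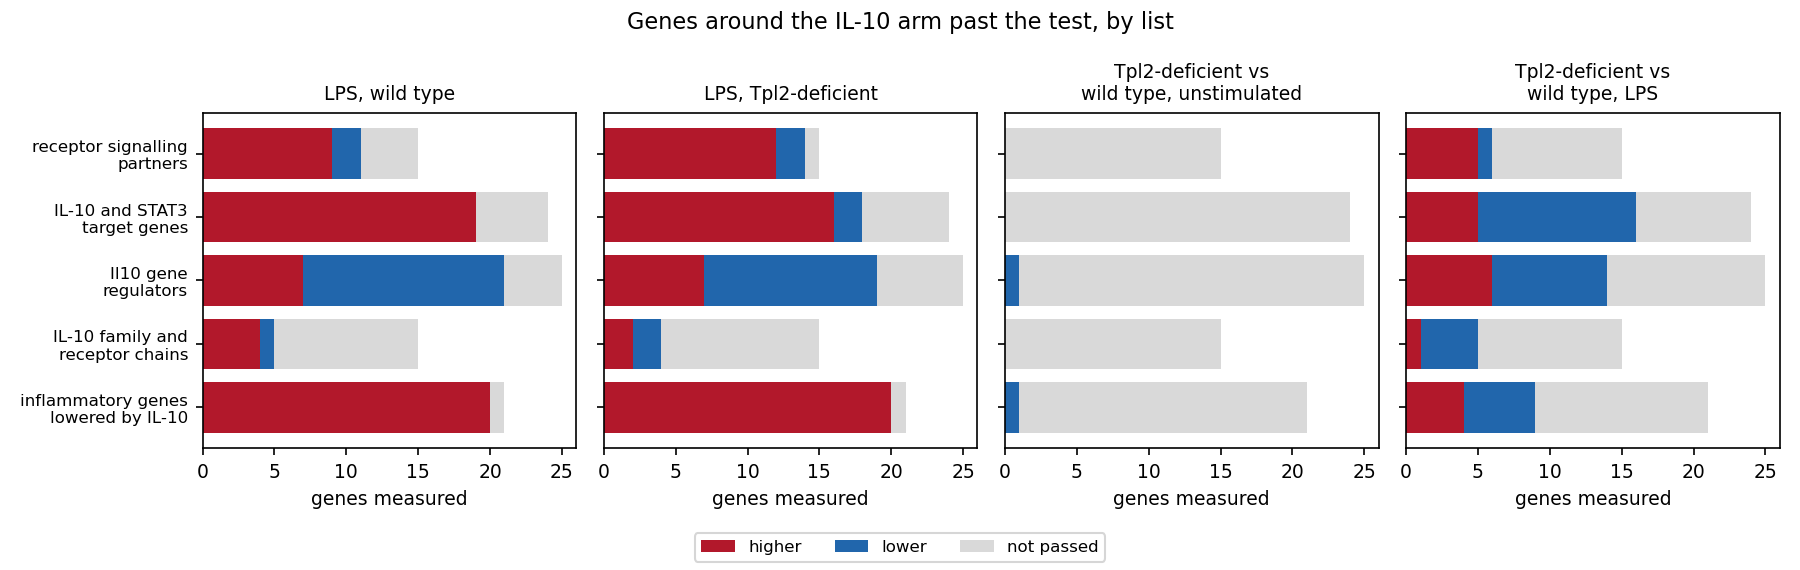
Number of measured genes (horizontal axis) of each of the 5 lists (vertical axis) that were higher, lower or not past an adjusted p under 0.05, in 4 comparisons. In LPS-treated Tpl2-deficient against wild-type cells, the targets of IL-10 and STAT3 split into 5 higher, 11 lower and 8 not passed.

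For the difference of the LPS responses, 5.72% of all genes were higher and 2.87% lower. The targets of IL-10 and STAT3 had 2 higher and 6 lower of 24. The related cytokines and receptor chains had 1 higher and 2 lower of 15. Of the remaining lists, the regulators of Il10 had 5 higher and 4 lower of 25, which became 1 or 2 higher and 3 lower without any array outside the LPS-treated Tpl2-deficient group and 4 higher and 7 lower without the second LPS-treated Tpl2-deficient array. The signalling partners had 2 higher of 15, which became 1 without any array outside that group, 4 without the first LPS-treated Tpl2-deficient array and 2, with 2 lower, without the second. The inflammatory genes had 3 higher and 3 lower of 21, with 1 higher and 3 lower without the second unstimulated wild-type array, either unstimulated Tpl2-deficient array or either LPS-treated wild-type array.

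The genes whose pattern over the 8 arrays was most like each member were sought among 3597 genes, by Pearson's r. The arrays share 4 groups, so these values describe the groups rather than 8 independent points. For Il10 they were Noct (0.998), Tnfsf4 (0.998) and Slc31a1 (0.997). For Nfil3 they were Plagl2, Dst and Trim13, all at 0.998, and for Stat3 Pml (1.00), Sipa1l1 (0.999) and Nlrc5 (0.999). For Il4ra they were Flrt3 (0.996), Gna15 (0.995) and Zfand5 (0.993), and for Sbno2 Eml4 (0.993), Rbpj (0.985) and Smox (0.983). For Il10rb they were Lpxn (0.997), Zfp52 (0.997) and Tlr4 (0.995), and for Il10ra, whose range was narrow, no gene exceeded 0.888 (Clcn7). Tlr4 encodes the receptor for LPS, and its mean log2 level fell with LPS from 10.21 to 9.50 in wild type and from 10.32 to 8.08 in Tpl2-deficient cells. Among the members themselves, Il10 and Nfil3 were most alike (r = 0.988 over 8 arrays), Il4ra and Sbno2 came to 0.869, and Stat3 and Il10rb ran opposite (-0.853).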

How the data were processed

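Total RNA from 8 macrophage samples was hybridised to Affymetrix mouse arrays. The authors deposited log2 intensities, made with GCOS and RMA per the submitters' processing notes; versions, chip definition file and genome build are not given in the sources used here. No further normalization or filter was applied. Probe sets with 1 symbol in the array's annotation were used, 34945 of 45101 (932 list several symbols, 9211 list none), and each of 18193 genes took the probe set with the highest mean. The number of arrays, 2 a group, limits the precision.

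The test was limma's (version 3.58.1, R 4.3.3; lmFit and eBayes, two-sided), fitted to all 8 arrays with 4 group means, 4 residual and 6.87 prior degrees of freedom, over 5 comparisons. Named list genes are up to 4 per list and comparison with the largest change past the threshold; Socs3 and Il6 under LPS and marker examples were chosen after their values were seen. The 3 genes most like each member were taken among genes whose highest group mean exceeded the median of all genes and whose group means spanned at least 1 log2 unit; predicted genes and clones were skipped. The members and lists were chosen with earlier results of these data known. Of 112 listed genes 100 were measured; the other 12 were not analysed here. Alternatives were other probe set rules, normalizations, variance models, a replicate block, a 2-fold minimum and the omission of each array; a crossed block was added after seeing the data. Same-numbered arrays did not deviate together (r of the replicate differences between groups -0.12 to 0.10), so numbers were not taken as pairs. Simulated data of 18193 genes were tested for the LPS-treated genotype comparison. The method recovered 55.7% of genes changed 1.5-fold, 77.4% changed 2-fold and 100% changed 4-fold, with 6 false among 165 calls. The simulation gave each gene the same spread in every group and changed few genes. In the data, LPS-treated Tpl2-deficient arrays spread more (median standard deviation 0.125, against 0.0713 to 0.0740 in the other groups) and 2500 genes passed. These rates therefore need not hold for this comparison.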

Additional observations from a re-analysis of the deposited data

Results flagged for a closer look

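The LPS response differed between genotypes, by a test of the difference itself, for 5 of the 7 members, each lower in Tpl2-deficient cells. The difference in log2 units was -2.82 for Il10, -1.42 for Il4ra, -0.90 for Sbno2, -0.67 for Nfil3 and -0.49 for Il10rb. The Il10 and Il4ra differences passed under each of their 20 alternatives that use the gene's chosen or averaged value, with adjusted p up to 1.06e-04 and 0.00121, and with a 2-fold minimum these were the 2 members that passed. Over the same 20 alternatives the call was kept in 18 for Sbno2, 14 for Nfil3 and 8 for Il10rb. Neither Il10rb probe set passed in limma's test adjusted over all probe sets (adjusted p = 0.0662 and 0.153). Single probe sets are not among the 20 alternatives, and 1 of the 4 of Sbno2 turned to 0.17 and did not pass. Groups of 2 arrays were not searched for outlying samples.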

How the results depend on the processing

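Il10 kept its direction and its call for LPS in either genotype (5.38 to 5.56 and 2.49 to 2.80), for genotype under LPS (-2.77 to -2.60) and for the difference of responses (-2.88 to -2.63). The member counts for LPS in Tpl2-deficient cells, genotype under LPS and the difference of responses went from 5, 5 and 5 to 3, 3 and 2 with a 2-fold minimum. Leaving out 1 array gave 4 to 5 members for LPS in wild type (6 with all arrays), 4 to 5 for LPS in Tpl2-deficient cells, 0 without LPS, 4 to 5 for genotype under LPS and 2 to 5 for the difference of responses. Centring on the hybridisation spike-ins moved the median change of all genes with LPS from 0.04 to -0.09 in wild type and from 0.00 to -0.20 in Tpl2-deficient cells; the rise of Sbno2 in wild type (0.34, adjusted p = 0.0766, against 4.18e-04 to 0.0766 over its alternatives) and the Il10rb difference of responses (-0.56) then did not pass. The Il10rb difference also missed the threshold with array medians (-0.45) and with array weights, the replicate block or the crossed block (-0.49 in each), and the fall of Il10rb in wild type with the mean of its probe sets (-0.20). With the replicate block the counts of genes were 9373, 7509, 85, 2388 and 1454 over the 5 comparisons, and Il10rb was the member call it changed; with the crossed block they were 7573 for LPS in Tpl2-deficient cells and 1454 for the difference.

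Over all genes, 9499 passed for LPS in wild type (3110 with a 2-fold minimum; 7544 to 8064 without 1 array) and 7596 in Tpl2-deficient cells (2631; 6011 to 8400). Without LPS 91 passed between genotypes, against 140 with a mean-variance trend, 531 with array weights, 48 with only the 4 arrays compared, 26 with a 2-fold minimum and 23 to 40 without 1 array. With LPS 2500 passed, against 1580 with array weights, 462 with a 2-fold minimum and 1356 to 3240 without 1 array. For the difference of responses 1563 passed, against 1022 with the spike-ins, 461 with a 2-fold minimum and 756 to 2565 without 1 array. Each probe set on its own gives no count of genes. The causes were not tested.

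Signs turned for values that had not passed in the fit used for the results above, except for Sbno2. With the mean of all probe sets, Stat3 gave -0.0807 without LPS, 0.13 with LPS and 0.21 for the difference of responses, and Il10ra -0.0832 for the difference. Stat3 gave -0.00617 without LPS with array medians and 0.0110 under LPS with the spike-ins, and Il4ra 0.0028 for LPS in Tpl2-deficient cells with quantile normalization repeated. Leaving out 1 array gave, without LPS, -0.0135 to 0.135 for Il10ra and -0.0148 to 0.0752 for Stat3, under LPS -0.0674 to 0.372 and -0.149 to 0.107, and for the difference -0.128 to 0.311 and -0.179 to 0.0771. Other probe sets of Il10ra gave -0.0789 and -0.0639 for LPS in Tpl2-deficient cells, -0.0758 and -0.0441 for genotype under LPS, and -0.26 and -0.0824 for the difference. Those of Stat3 gave -0.37 and -0.0435 without LPS, 0.16, 0.10 and 0.27 with LPS, and 0.10, 0.47 and 0.32 for the difference. Those of Il4ra gave 0.19 for LPS in Tpl2-deficient cells and 0.46 for genotype without LPS. Those of Sbno2 gave 0.47, which passed upward, and 0.0495 for LPS in Tpl2-deficient cells, and 0.17 for the difference. The Sbno2 values these turned from, -0.42 and -0.90, had passed.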
